A study of Homo sapiens with 29 samples.

Results

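The genes described here are 10 transcription factors from families that hold immediate early genes, read in EndoC-βH1 cells. The FOS family (FOS, FOSB, FOSL1, FOSL2) and the JUN family (JUN, JUNB, JUND) together form AP-1. The others are the zinc finger factor EGR1 and the orphan nuclear receptors NR4A1 and NR4A2. All 10 were taken by symbol from a table of 66025 entries, and each matched 1 Ensembl identifier. EndoC-βH1 is a line of immortalised human β cells, the insulin-secreting cells of the pancreas. The cells were kept for 10 days in medium that HEK293 cells, a human embryonic kidney line, had conditioned for 3 h before filtering and adjustment to equal protein. The HEK293 cells stably overexpressed mutant CEL (MUT, 10 libraries), wild-type CEL (WT, 10 libraries) or an empty vector (EV, 9 libraries). The CEL gene codes for carboxyl ester lipase, which pancreatic acinar cells secrete to digest fat, and its mutation causes a form of monogenic diabetes. All 3 groups share the cell line, the HEK293 source, the daily renewal of medium and the length of culture, and the labels used here name neither the mutation nor the time between the last medium change and lysis. Batch 1 held 4 MUT, 4 WT and 3 EV libraries, and batches 2 and 3 held 3 of each.

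Immediate early genes are transcribed within minutes of a stimulus without new protein synthesis. In β cells, glucose, calcium entry, cyclic AMP and growth factors are known to switch them on, through ERK signalling to serum response factor at CArG boxes and through CREB at cyclic AMP response elements. FOS and JUN proteins bind DNA as dimers, and JUND and JUNB are usually weaker activators than JUN. EGR1 is induced by the same signals, and NR4A1 and NR4A2 bind DNA without a known natural ligand.

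Fewer cells of a type and less RNA per cell cannot be told apart in such bulk samples. Totals ran from 26.2 to 40.2 M estimated counts per library, and values below are CPM, counts relative to the library total after TMM scaling. Whether same-medium libraries of 1 batch are separate cultures is not labelled, so p-values reflect library-to-library spread that may be technical. Each batch and medium had 1 set of libraries, so a difference between media within a batch and a difference between sets cannot be told apart. The β-cell label was met by its markers: 12 of 12 passed the low-count filter, with sums of 19300 to 30000 CPM over the 29 libraries. Sums for 4 alpha-cell markers were 723 to 1680 CPM, for 2 delta-cell markers 20.6 to 256 CPM and for 4 duct markers 38.2 to 61.1 CPM. The 6 acinar markers summed to 21.4 to 45.7 CPM, with 1 of 6 passing the filter and PRSS1, which encodes trypsinogen, at most 0.0336 CPM in any library. The 6 fibroblast and stellate markers summed to 1.96 to 6.67 CPM, and the 3 endothelial markers to 0.0265 to 0.226 CPM with none passing the filter.

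The stretches before the start sites of the most responsive members, EGR1, FOS and FOSB, and of the most abundant member, JUND, are shown because they carry the elements named above. They are RefSeq sequences on GRCh38.p14, written 5′ to 3′ on the strand of the gene, and end where GENCODE 29 begins the gene or at the RefSeq start site. Capitals mark the CArG box (CC, 6 bases of A or T, GG), the cyclic AMP response element TGACGTCA or its core TGACGT, and the EGR site GCGNGGGCG, each on either strand.
EGR1, chr5:138465229-138465478, plus strand: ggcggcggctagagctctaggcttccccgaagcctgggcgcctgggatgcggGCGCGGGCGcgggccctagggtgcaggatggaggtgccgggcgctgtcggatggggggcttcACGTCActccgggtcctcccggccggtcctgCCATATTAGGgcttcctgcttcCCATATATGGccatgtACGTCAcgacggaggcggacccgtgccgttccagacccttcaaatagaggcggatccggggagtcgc
FOS, chr14:75278578-75278773, plus strand: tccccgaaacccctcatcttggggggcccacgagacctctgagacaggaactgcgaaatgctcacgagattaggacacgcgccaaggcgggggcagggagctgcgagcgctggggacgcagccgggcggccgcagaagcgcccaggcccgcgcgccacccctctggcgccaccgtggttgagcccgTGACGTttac
FOSB, chr19:45467746-45467994, plus strand: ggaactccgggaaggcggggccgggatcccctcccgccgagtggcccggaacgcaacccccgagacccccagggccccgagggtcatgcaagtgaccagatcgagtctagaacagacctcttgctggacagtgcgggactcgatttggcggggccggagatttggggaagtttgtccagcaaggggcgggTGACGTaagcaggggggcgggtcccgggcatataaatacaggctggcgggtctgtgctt
JUND, chr19:18281623-18281872, minus strand: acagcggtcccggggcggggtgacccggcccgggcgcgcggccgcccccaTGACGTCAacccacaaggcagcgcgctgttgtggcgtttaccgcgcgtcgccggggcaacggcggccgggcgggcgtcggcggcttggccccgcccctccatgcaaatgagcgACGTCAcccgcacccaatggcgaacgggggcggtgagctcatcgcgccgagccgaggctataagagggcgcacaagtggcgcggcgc

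EGR1 held 2 CArG boxes, starting 105 and 83 bases before its start site, 2 TGACGT cores at 136 and 67 bases and 1 EGR site at 198 bases. The core stood 64 bases before the start site in FOS, 60 bases in FOSB and 66 bases in FOSL2, whose stretch is not shown. JUND held 1 full TGACGTCA at 200 bases, which contains overlapping cores on both strands, and a further core at 87 bases. The stretch of 250 bases before the start site held none of these motifs in JUN, JUNB or NR4A1. The AP-1 site TGANTCA was found in no stretch of the 8 members with a RefSeq entry. Among 35116 promoters of the same length, a CArG box was in 1.16%, TGACGTCA in 1.65%, TGACGT in 7.1%, TGANTCA in 6.57% and GCGNGGGCG in 8.41%. The core was added to the search after these stretches had been read, so its share over all promoters is no yardstick for them. A match describes letters in this window only.

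The 10 genes span a wide range of levels. Divided by the length of the longest coding transcript, the median over 29 libraries ran from 81.6 CPM per kb for JUND and 24.5 for JUNB to 9.21 for JUN and 2.89 for EGR1. NR4A2 (1.3 CPM per kb), FOS (1.09) and NR4A1 (0.906) followed, then FOSL2 (0.212), FOSB (0.125) and FOSL1 (0.0376). In batch 1 each gene's libraries lay wholly above those of the next gene in the order JUND, JUNB, JUN, EGR1 and NR4A2, and NR4A1 and FOS overlapped. In batch 2 the order changed: FOS, with a median of 26.9 CPM per kb, and EGR1, with 24.3, stood above JUN, with 15.2, although the ranges of these 3 genes overlapped. JUND and JUNB also overlapped in batch 2. FOSL1 had 0 to 12 counts per library and did not pass the filter, so 9 members were tested. Its highest library, a MUT library of batch 2, reached 0.303 CPM.

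**Figure D1:**
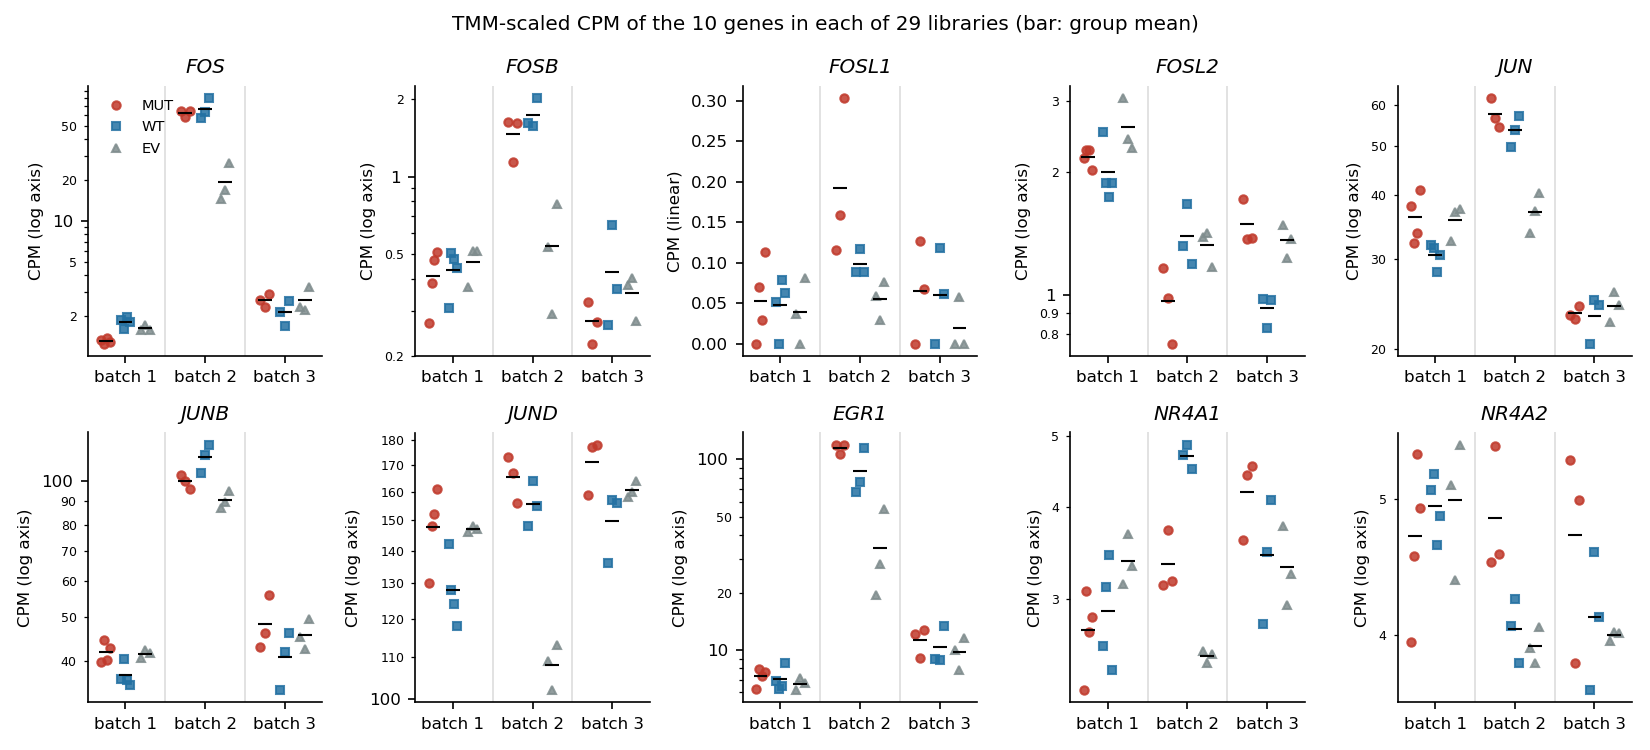
CPM (TMM-scaled, log axis except for FOSL1) of each gene in each of 29 libraries, by batch, with MUT, WT and EV from left to right and bars at group means. In batch 2 FOS ran from 14.5 to 80.0 CPM and EGR1 from 19.5 to 119 CPM, above every library of batches 1 and 3, where FOS ran from 1.26 to 3.28 CPM and EGR1 from 6.16 to 13.3 CPM.

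Over the 3 batches together, no member passed the test for an effect of medium. The model held batch and medium over all 29 libraries, and a gene was called where edgeR's quasi-likelihood test gave it a p under 0.05 after Benjamini-Hochberg adjustment. For MUT vs EV 0 of 9 members were called, where 5.20% of all 21259 genes were, and 2.95% were called higher. Comparing MUT with WT called 0 of 9 (0.884% of all genes), and comparing WT with EV called 0 of 9 (0.315%). The median log2 fold change of the 9 members was 0.196 in MUT vs EV, 0.09 in MUT vs WT and 0.062 in WT vs EV, beside 0, 0.004 and −0.001 over all genes. At an unadjusted p under 0.05 there were 4 members between MUT and EV (EGR1, FOS, JUND and JUN), 1 between MUT and WT (JUND) and 4 between WT and EV (FOS, FOSB, EGR1 and FOSL2). Of all 21259 genes, 5005, 3145 and 2800 reached that unadjusted threshold. DESeq2 called 2, 0 and 0 members. EGR1 had a log2 fold change of 0.74 ± 0.22 (SE) between MUT and EV (edgeR adjusted p = 0.0502), and with DESeq2 its adjusted p was 0.03. JUND had 0.22 ± 0.07 (SE) with an edgeR adjusted p of 0.0724, and 0.0384 with DESeq2. FOS had 0.72 ± 0.25 (SE) with an edgeR adjusted p of 0.0826. Without batch 2, the log2 fold change for MUT vs EV was 0.158 for EGR1, 0.044 for JUND and −0.161 for FOS, and 0 of 9 members were called. Without batch 3, 4 were called for MUT vs EV (FOS, JUN, JUND and EGR1), without batch 1 it was JUND, and without EV library 3 of batch 3 they were FOS and EGR1.

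In the comparisons with EV, which share the EV libraries, the medium effect of most members differed between the batches. In edgeR's test of that difference, 6 of 9 members were called for MUT vs EV (FOS, FOSB, JUN, JUND, EGR1 and NR4A1), against 44.0% of all genes. For WT vs EV 7 of 9 were called, the same 6 and JUNB, against 24.1% of all genes. For MUT vs WT 3 of 9 were called (FOSL2, JUNB and NR4A1), a share near the 28.4% of all genes. The smallest adjusted p values were 8.16e-07 for JUND and 8.47e-06 for FOS, both for WT vs EV. Each batch was therefore also fitted alone.

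In batch 2, FOS (ENSG00000170345, chr14:75278774-75282230, plus strand; this and the positions below are from GENCODE 29 on GRCh38), the founding AP-1 member that needs a JUN partner to bind DNA, had 64.7, 58.0 and 64.3 CPM in MUT, 57.3, 63.5 and 80.0 CPM in WT and 14.5, 17.0 and 26.8 CPM in EV. All MUT and WT libraries lay above all EV libraries, and MUT and WT overlapped. FOS was 3.19-fold higher in MUT than in EV (log2 fold change 1.68 ± 0.24 SE, edgeR adjusted p = 0.00146). WT exceeded EV 3.41-fold (1.77 ± 0.24 SE, edgeR adjusted p = 0.00151). MUT and WT differed by −0.10 ± 0.22 (SE) on the log2 scale, with an edgeR adjusted p of 0.788.

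EGR1 (ENSG00000120738, chr5:138465490-138469315, plus strand), a zinc finger activator that glucose is known to induce in β cells, had 118, 107 and 119 CPM in MUT, 67.4, 76.3 and 115 CPM in WT and 19.5, 28.2 and 54.6 CPM in EV of batch 2. The highest EV library lay below all libraries of the other media, and MUT and WT overlapped. The fold was 3.33 for MUT over EV (1.74 ± 0.39 SE, edgeR adjusted p = 0.0109) and 2.5 for WT over EV (1.32 ± 0.39 SE, edgeR adjusted p = 0.0395). The call for WT over EV was fragile: in each of 8 fits without 1 library it was lost, with edgeR adjusted p values of 0.0572 to 0.116. These fits include those without a MUT library, which is not part of that comparison. The log2 fold change ran from 1.046 to 1.847 over the libraries left out in turn. Without the ninth, EV library 3, the highest EV library, it was kept, and with no filter on low counts it was lost (0.0759).

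FOSB (ENSG00000125740, chr19:45467995-45475179, plus strand), a close relative of FOS, had low counts but was also called. Batch 2 gave 1.63, 1.14 and 1.62 CPM in MUT, 1.62, 1.58 and 2.02 CPM in WT and 0.533, 0.29 and 0.785 CPM in EV, with no overlap between EV and the other media. MUT exceeded EV 2.69-fold (1.43 ± 0.27 SE, edgeR adjusted p = 0.000318) and WT exceeded EV 3.18-fold (1.67 ± 0.27 SE, edgeR adjusted p = 9.34e-05). These values rest on 10 to 68 counts per library. FOSL1 (ENSG00000175592, chr11:65892049-65900573, minus strand), a FOS relative without the FOS activation domain, counted but not tested, had 0.116, 0.159 and 0.303 CPM in MUT, 0.0882, 0.117 and 0.0889 CPM in WT and 0.0593, 0.029 and 0.076 CPM in EV. FOSL2 (ENSG00000075426, chr2:28392448-28417312, plus strand), a further relative of that kind, averaged 0.968 ± 0.204 CPM in MUT, 1.39 ± 0.249 CPM in WT and 1.33 ± 0.14 CPM in EV (SD, n = 3 each). It was not called in any comparison of batch 2, with edgeR adjusted p values of 0.0807 against EV and 0.0599 against WT for MUT. Without MUT library 1 both were called, lower in MUT (adjusted p = 0.0422 and 0.0371).

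The JUN family had smaller folds. JUN (ENSG00000177606, chr1:58780788-58784327, minus strand), the main activating partner of FOS, had 61.9, 56.7 and 54.5 CPM in MUT, 49.8, 53.7 and 57.2 CPM in WT and 33.8, 37.3 and 40.4 CPM in EV. It was 1.55-fold higher in MUT than in EV (0.64 ± 0.07 SE, edgeR adjusted p = 2.57e-06) and 1.44-fold higher in WT than in EV (0.52 ± 0.07 SE, edgeR adjusted p = 2.87e-05). JUND (ENSG00000130522, chr19:18279760-18281622, minus strand), the most abundant member, had 173, 167 and 156 CPM in MUT, 148, 164 and 155 CPM in WT and 109, 102 and 113 CPM in EV. Its folds were 1.53 in MUT and 1.44 in WT over EV (edgeR adjusted p = 4.1e-08 and 4.65e-07), and its libraries overlapped between MUT and WT and not with EV.

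For JUND the EV libraries of batch 2 lay below all other libraries. It lay between 118 and 178 CPM in every library of batches 1 and 3, and the 6 MUT and WT libraries of batch 2 lay within that range. EV libraries of batch 2 were lower than EV libraries of batch 1, with a fold of 0.735 (edgeR adjusted p = 2.16e-06), and lower than those of batch 3, with a fold of 0.675 (edgeR adjusted p = 1.17e-07). Against batch 1, JUND of batch 2 was 1.12-fold higher in MUT (edgeR adjusted p = 0.0328, with 55.7% of all genes called) and 1.22-fold higher in WT (0.000295, with 60.5%). Against batch 3 the folds were 0.966 in MUT (0.593, 41.0%) and 1.04 in WT (0.537, 42.6%). JUN in EV was not called between batches 2 and 1 (fold 1.04, edgeR adjusted p = 0.603), was 1.53-fold higher in batch 2 than in batch 3 (1.06e-06) and was lower in batch 3 than in batch 1, at 0.679-fold (2.54e-06).

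JUNB (ENSG00000171223, chr19:12791496-12793315, plus strand), a partner that can also restrain JUN, had higher levels in all media of batch 2 than in any library of the other batches. MUT had 103, 100.3 and 96.0 CPM, WT had 104, 114 and 119.6 CPM and EV had 87.0, 89.8 and 94.9 CPM. The media did not overlap, with WT highest and EV lowest, and the differences were small: 1.1-fold for MUT over EV (edgeR adjusted p = 0.0288), 1.24-fold for WT over EV (edgeR adjusted p = 0.000119) and 0.891-fold for MUT over WT (edgeR adjusted p = 0.018). The call for MUT over EV was lost when scaling used library totals alone (adjusted p = 0.0742) and in fits without EV library 1, EV library 2, MUT library 1 or MUT library 2 (adjusted p from 0.0688 to 0.105). The call for MUT over WT was lost without WT library 2 or 3 or MUT library 3 (adjusted p from 0.0647 to 0.125).

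NR4A1 (ENSG00000123358, chr12:52022832-52059507, plus strand), an orphan receptor also known as Nur77, was highest in WT of batch 2. It had 3.14, 3.73 and 3.18 CPM in MUT, 4.71, 4.86 and 4.51 CPM in WT and 2.55, 2.46 and 2.53 CPM in EV, again without overlap. Folds were 1.34 for MUT over EV (edgeR adjusted p = 0.00677), 1.86 for WT over EV (edgeR adjusted p = 8.72e-06) and 0.719 for MUT over WT (edgeR adjusted p = 0.00331). NR4A2 (ENSG00000153234, chr2:156324432-156342348, minus strand), its relative Nurr1, had 4.51, 5.46 and 4.57 CPM in MUT, 4.06, 4.24 and 3.82 CPM in WT and 3.91, 3.82 and 4.05 CPM in EV. MUT exceeded EV 1.24-fold (edgeR adjusted p = 0.0265), and WT and EV overlapped (fold 1.03, edgeR adjusted p = 0.822). The call for MUT over EV was lost with DESeq2 (adjusted p = 0.102), with no filter on low counts (0.0658), and without EV library 1 or 2 or MUT library 2 (0.0585 to 0.163).

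By count, 8 of 9 members were called higher in MUT than in EV in batch 2, and none lower. That batch is where 47.8% of all genes were called for MUT vs EV and 24.1% were called higher. The members were chosen with earlier results of these data known. Among EV libraries, batch 2 lay below batch 1 for JUND, NR4A1 and NR4A2 (folds 0.735, 0.741 and 0.788). It lay above batch 1 for FOS, EGR1 and JUNB (11.8, 5.12 and 2.18), and JUN and FOSB were not called. That comparison called 58.0% of all genes. For WT vs EV 7 of 9 members were called higher, against 38.9% of all genes called and 19.6% called higher, and for MUT vs WT 2 of 9 were called lower, JUNB and NR4A1, against 33.1% called and 16.4% called lower. The median log2 fold change of the 9 members was 0.617 for MUT vs EV, 0.523 for WT vs EV and −0.096 for MUT vs WT, beside −0.001, −0.007 and 0.009 over all genes. MUT vs EV and WT vs EV share the EV libraries.

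Other measures also differed between the sets of batch 2, and their part in these results was not tested. CD68, a lysosomal protein listed as an immune marker, had 36.8 to 37.8 CPM in MUT, 58.8 to 62.4 CPM in WT and 126 to 134 CPM in EV, while PTPRC, which marks leukocytes, was at most 0.0882 CPM in these 9 libraries. The 4 immune markers, of which 2 passed the filter, summed to 37.6 to 39.7 CPM in MUT, 60.6 to 64.5 CPM in WT and 127 to 136 CPM in EV. The 6 fibroblast and stellate markers, of which 2 passed, summed to 5.68 to 6.3 CPM in MUT, 5.36 to 6.67 CPM in WT and 2.03 to 2.55 CPM in EV. COL1A1 averaged 5.55 ± 0.426 CPM in MUT, 5.55 ± 0.613 CPM in WT and 1.71 ± 0.182 CPM in EV (SD, n = 3 each). INS, the insulin gene, averaged 9090 ± 283, 8840 ± 313 and 12400 ± 893 CPM in MUT, WT and EV. Of the 12 β-cell markers, 4 were called higher and 6 lower in MUT than in EV, where 47.8% of all genes were called. In WT relative to EV, 9 were called higher and 2 lower, where 38.9% of all genes were called, so most of the list ran opposite to INS in WT. The 12 summed to 19300 to 20500 CPM in MUT, 24100 to 25000 CPM in WT and 23600 to 25700 CPM in EV. The 4 alpha-cell markers summed to 1270 to 1350 CPM in MUT, 1510 to 1540 CPM in WT and 1460 to 1470 CPM in EV. Of these 4, 3 were called lower and 1 higher in MUT than in EV, beside the 47.8% of all genes called. The 2 delta-cell markers summed to 175 to 179 CPM in MUT, 236 to 256 CPM in WT and 156 to 163 CPM in EV. The 4 duct markers, of which 3 passed, summed to 38.2 to 43.4 CPM in MUT, 54.8 to 61.1 CPM in WT and 53.5 to 56.3 CPM in EV. The 6 acinar markers summed to 21.4 to 23.6 CPM in MUT, 21.4 to 22.6 CPM in WT and 25.0 to 28.5 CPM in EV. CEL itself averaged 4.08 ± 0.206, 4.88 ± 1.84 and 3.5 ± 0.568 CPM in MUT, WT and EV of that batch. Mitochondrial transcripts took 4.89 to 5.41% of counts in MUT, 3.99 to 4.05% in WT and 4.8 to 5.25% in EV. The 4 heat shock genes summed to 431 to 452 CPM in MUT, 444 to 461 CPM in WT and 421 to 443 CPM in EV of batch 2, against 265 to 407 CPM in the libraries of batches 1 and 3.

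In batches 1 and 3 the media did not separate these genes by the test. In batch 1, 0 of 9 members were called between MUT and EV (1.40% of all genes), between MUT and WT (0.277%) and between WT and EV (0.0143%). At an unadjusted p under 0.05 there were 2, 4 and 4 members, beside 4698, 3547 and 2042 of all 20942 genes. FOS and NR4A1 were lower in MUT than in EV, and FOSL2, JUN, JUNB and JUND were lower in WT than in EV. Between MUT and WT, FOS was lower and JUN, JUNB and JUND were higher in MUT. The members' median log2 fold changes were −0.102, 0.023 and −0.158, beside −0.004, −0.004 and 0.005 over all genes, with 2, 5 and 2 of 9 positive. DESeq2 called 0 members in each comparison. The shares over all genes moved with single libraries: the 294 genes called between MUT and EV became 1 without EV library 2 and 3018 without MUT library 4, and the 58 called between MUT and WT ran from 0 to 1314 over the libraries left out in turn, the highest again without MUT library 4. In these fits 0 of 9 members were called. FOS averaged 1.32 ± 0.0537 CPM in MUT, 1.82 ± 0.153 CPM in WT (SD, n = 4 each) and 1.64 ± 0.0781 CPM in EV (SD, n = 3). All 4 MUT libraries, at 1.26 to 1.38 CPM, lay below the 4 WT libraries, at 1.61 to 1.98 CPM, and the fold of 0.714 had an edgeR adjusted p of 0.0932. EGR1 averaged 7.28 ± 0.72 CPM in MUT, 7.06 ± 1.06 CPM in WT and 6.67 ± 0.482 CPM in EV, and JUND 147.8 ± 12.9, 127.7 ± 10.3 and 147.1 ± 0.933 CPM.

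In batch 3, 0 of 9 members were called between MUT and EV (0.0490% of all genes), between MUT and WT (1.22%) and between WT and EV (0.00981%). At an unadjusted p under 0.05 there were 0, 2 and 1 members, beside 3055, 3727 and 1091 of all 20390 genes. The members' median log2 fold changes were 0.096, 0.191 and −0.055, beside −0.001, −0.006 and 0.004 over all genes, with 7, 8 and 4 of 9 positive. DESeq2 called 0, 1 and 0 members. Here the 10 genes called between MUT and EV ran from 3 to 975 over the libraries left out in turn, the highest without WT library 1, and the 248 called between MUT and WT became 26 without WT library 2 and 1051 without WT library 3, again with 0 of 9 members called. FOS averaged 2.64 ± 0.289, 2.15 ± 0.433 and 2.62 ± 0.582 CPM in MUT, WT and EV (SD, n = 3 each), and EGR1 averaged 11.3 ± 1.97, 10.4 ± 2.53 and 9.79 ± 1.88 CPM. JUN was lower than in the other batches, at 20.5 to 25.9 CPM in all 9 libraries. FOSL2 had 1.72, 1.37 and 1.38 CPM in MUT and 0.978, 0.827 and 0.97 CPM in WT of batch 3. Its fold of 1.61 for MUT over WT, without overlap, had an edgeR adjusted p of 0.0951 and ran opposite to the 0.695 of batch 2. That difference between batches was called (edgeR adjusted p = 0.0029).

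**Figure D2:**
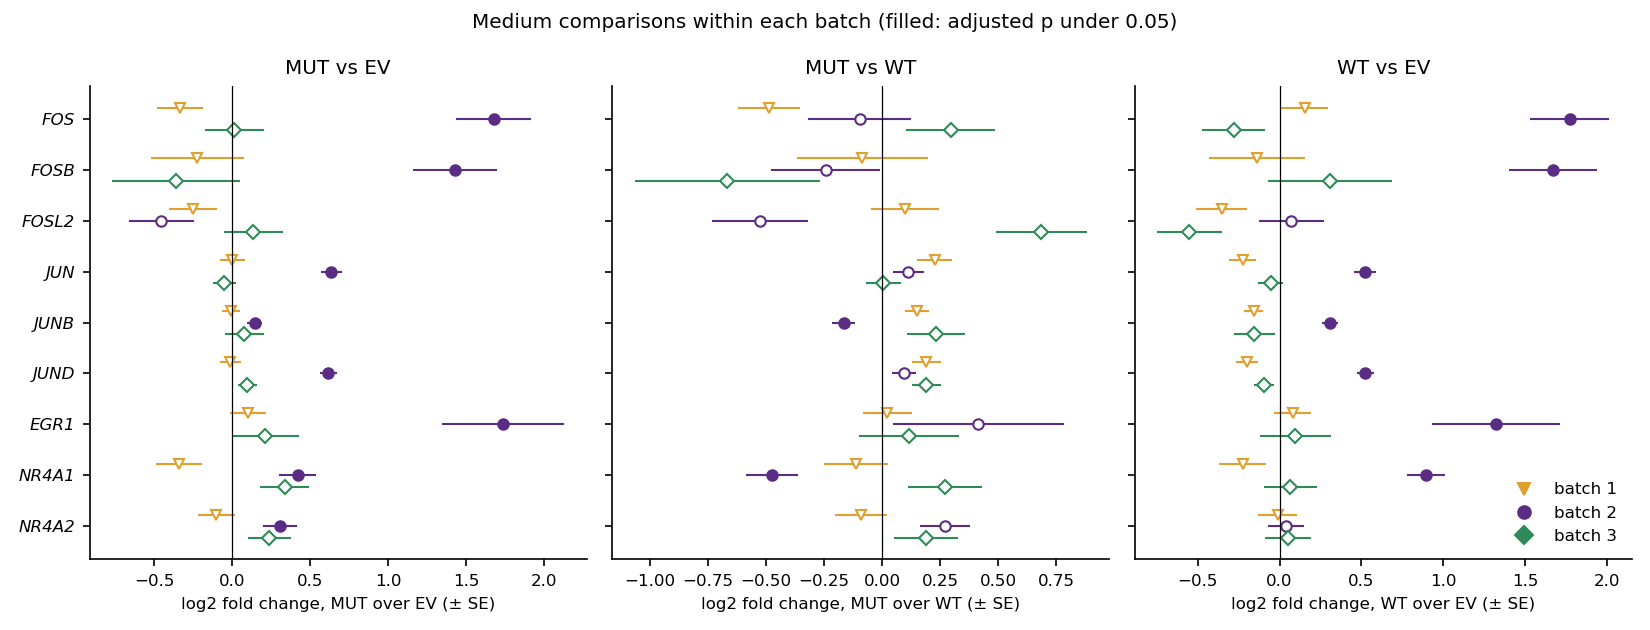
Log2 fold change with its standard error of the 9 tested members in each batch, with 1 panel per pair of media (MUT over EV, MUT over WT, WT over EV) and filled symbols where the edgeR adjusted p was under 0.05. All filled symbols belong to batch 2, where FOS, FOSB and EGR1 reached 1.32 to 1.77 over EV and the JUN family stayed within 0.14 to 0.64.

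FOS, EGR1 and JUNB differed between batches by larger folds than between media. Among EV libraries alone, FOS averaged 19.4 ± 6.48 CPM in batch 2 and 1.64 ± 0.0781 CPM in batch 1 (SD, n = 3 each), an 11.8-fold difference, and it was 7.45-fold above batch 3. EGR1 in EV averaged 34.1 ± 18.3 CPM in batch 2, 5.12-fold above batch 1 and 3.51-fold above batch 3. JUNB in EV was 2.18-fold and 1.98-fold higher in batch 2 than in batches 1 and 3. These 6 differences were called in edgeR (largest adjusted p 3.66e-05), in comparisons where 58.0% of all genes were called between batches 2 and 1 and 38.6% between batches 2 and 3. FOS differed between batches 3 and 1 as well, 1.59-fold (edgeR adjusted p = 0.0388), in a comparison that called 47.1% of all genes. FOS was 47.1-fold higher in MUT of batch 2 than of batch 1 and 36.5-fold higher in WT, and EGR1 15.7-fold in MUT and 12.2-fold in WT. Over batch 3 the folds were 23.6 in MUT and 31.2 in WT for FOS, and 10.1 in MUT and 8.26 in WT for EGR1.

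The remaining members varied in EV as follows. FOSB in batch 2 had folds of 1.15 over batch 1 and 1.54 over batch 3, and neither was called (edgeR adjusted p = 0.616 and 0.142). NR4A1 was lower in batch 2 than in both, at 0.741-fold of batch 1 (0.0125) and 0.757-fold of batch 3 (0.0307). In MUT, NR4A1 of batch 2 was not called against batch 1 (fold 1.23, edgeR adjusted p = 0.0587) or batch 3 (0.8, 0.0708). In WT, NR4A1 of batch 2 was higher than in batch 1 (1.62, 3.66e-05) and batch 3 (1.35, 0.0137). The shares of all genes called are those given for JUND. NR4A2 in EV of batch 2 was lower than in batch 1, at 0.788-fold (0.0168), and was not called against batch 3, at 0.984-fold (0.906). In MUT, NR4A2 of batch 2 was not called against batch 1 (fold 1.03, edgeR adjusted p = 0.773) or batch 3 (1.03, 0.82). In WT the folds were 0.818 of batch 1 (0.0296) and 0.979 of batch 3 (0.871). FOSL2 in EV was 0.515-fold in batch 2 and 0.529-fold in batch 3 relative to batch 1 (edgeR adjusted p = 1.61e-05 and 4.52e-05). Batch 2 was at 0.975-fold of batch 3 (0.895). The labels say no more of a batch than its number.

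How the members moved together was read from the deviation of each library's log2 CPM from the mean of its batch and medium, over 29 libraries. Of 36 pairs of the 9 tested members, 28 had a positive Pearson r, with a median of 0.187 and a range of −0.456 to 0.868. The pair FOS and EGR1 had r = 0.868 and Spearman rho = 0.749, with p = 0.0002 and 0.00062 in a permutation test of libraries within batch and medium (100000 resamples, two-sided). The Benjamini-Hochberg adjusted values over the 36 pairs were 0.0072 and 0.0223, and no other pair passed, the next adjusted p being 0.122 for r and 0.101 for rho. Without the 2 libraries farthest from the median in FOS, r was 0.771. Within batches it was 0.094 over 11 libraries of batch 1, 0.992 over 9 libraries of batch 2 and 0.855 over 9 libraries of batch 3. The SD of FOS deviations was 0.088 in batch 1, against 0.304 and 0.256 in batches 2 and 3. FOS had 36 to 75 counts per library in batch 1 and 57 to 108 in batch 3. With so small a spread at such counts, r in batch 1 does not decide whether the relation held there. Counts in batch 3 were low as well, and the part of counting noise was not tested in either batch.

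The EV libraries of batch 2 lay at both ends: the FOS deviation was −0.37 in library 1 and 0.51 in library 3, with EGR1 at 19.5 and 54.6 CPM. WT library 3 of batch 2 was likewise the highest of its group in FOS (80.0 CPM) and EGR1 (115 CPM). The relations of FOS and EGR1 deviations missed the threshold in the same test for the total count (r = 0.215 and 0.183), the mitochondrial share (−0.053 and −0.059) or the heat shock sum (−0.063 and −0.272), with adjusted permutation p values over 16 such relations from 0.629 to 0.861.

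**Figure D3:**
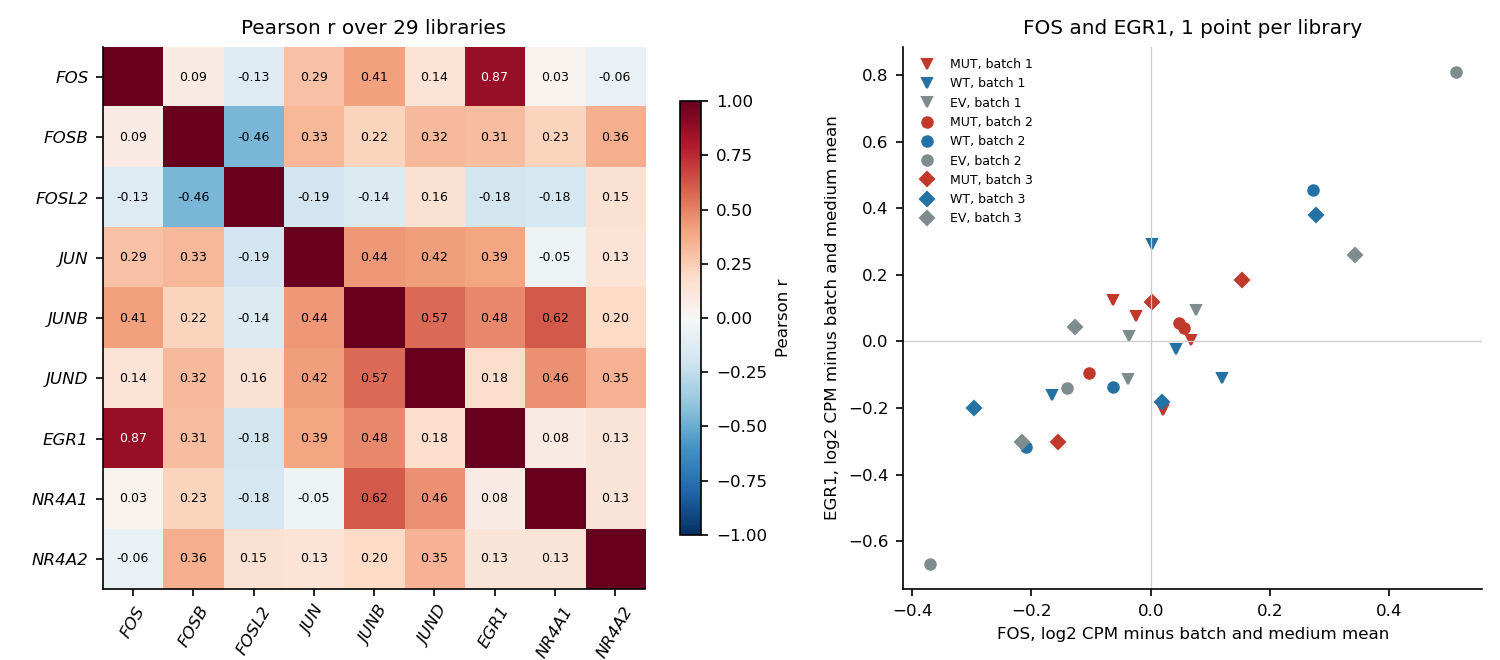
Pearson r between the 9 tested members over deviations of log2 CPM from batch and medium means in 29 libraries (left), and the deviations of FOS and EGR1 with 1 point per library (right). FOS and EGR1 share r = 0.87, and FOSL2 has negative r with FOS, FOSB, JUN, JUNB, EGR1 and NR4A1.

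JUNB was the member closest to the rest, with r = 0.685 to the mean of the other members' deviations, followed by JUND (0.627), EGR1 (0.538), JUN (0.408) and FOS (0.374), and FOSL2 was the farthest at −0.197. These are descriptions over 29 libraries that share batches and depth. JUNB had r = 0.617 with NR4A1 and 0.568 with JUND, beside a 5th to 95th percentile of −0.513 to 0.528 for JUNB with 12970 other genes, and both missed the adjusted threshold (0.122 each). FOS and FOSB had r = 0.086 over all libraries, and −0.099, 0.66 and −0.581 within batches 1, 2 and 3. FOSB had only 9 to 19 counts per library in batch 1, 10 to 68 in batch 2 and 7 to 22 in batch 3. At such counts these r cannot decide whether FOS and FOSB moved together, and the part of counting noise was not tested. The genes outside the list whose deviations were most like the mean of the members were RNASEK (r = 0.765), CPLX1 (0.754), PNMA6A (0.723), FOXA2 (0.721), RASD1 (0.718), CKS2 (0.717), TMEM139 (0.711) and MRPS21 (0.701), out of 12297 candidates over 29 libraries.

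Other immediate early genes were also called over EV in batch 2. This list and the lists in the paragraphs below were chosen with earlier results of these data known. Their counts are therefore descriptions and give no independent support. Genes named from a list with their values were, unless said otherwise, among its up to 6 with the smallest p. Of 29 listed, 26 passed the filter, and in batch 2 20 were called higher and 1 lower in MUT than in EV, and 18 higher and 0 lower in WT than in EV. Among all genes of batch 2, 47.8% were called for MUT vs EV, 24.1% higher, and 38.9% for WT vs EV, 19.6% higher. The list's median log2 fold change was 0.477 and 0.391, beside −0.001 and −0.007 over all genes. In batches 1 and 3, where 23 and 24 were tested, 0 were called in any comparison by edgeR, with 1 to 6 at an unadjusted p under 0.05. Few genes of any kind were called there, 0.0143% to 1.40% in batch 1 and 0.00981% to 1.22% in batch 3. At the unadjusted threshold there were 2042 to 4698 of 20942 genes in batch 1 and 1091 to 3727 of 20390 in batch 3. ARC, a synaptic immediate early gene, averaged 2.02 ± 0.157 CPM in MUT, 1.19 ± 0.3 CPM in WT and 0.308 ± 0.0951 CPM in EV of batch 2 (SD, n = 3 each), a 6.54-fold difference of MUT over EV (edgeR adjusted p = 9.8e-08). DUSP1, a phosphatase that shuts off MAP kinases, averaged 37.8 ± 1.48, 36.5 ± 3.43 and 18.7 ± 2.03 CPM in MUT, WT and EV, and EGR3, the relative of EGR1, 2.39 ± 0.178, 2.19 ± 0.272 and 0.788 ± 0.108 CPM. KLF4, a zinc finger factor, stood at 5.74 ± 0.7, 11.7 ± 0.473 and 5.85 ± 0.635 CPM in MUT, WT and EV, with a fold of 0.493 for MUT over WT (edgeR adjusted p = 5.68e-07). KLF10, the gene called lower, was picked out after its value was seen (log2 fold change −0.46 for MUT vs EV). Over all batches, ARC (1.31, edgeR adjusted p = 0.0282) and NPAS4 (1.38, 0.0351) were called higher in MUT than in EV, as were 2.95% of all genes. NPAS4 too was picked out after its value was seen.

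Genes that ERK signalling induces, many of which feed back on it, were also higher over EV in batch 2, in a list chosen in the same way. In batch 2 all 9 that passed the filter, of 11 listed with IER3 shared with the previous list, were called higher in MUT than in EV and all 9 in WT than in EV. The shares of all genes called higher were 24.1% and 19.6%. DUSP6, an ERK phosphatase, averaged 28.9 ± 0.742 CPM in MUT, 29.7 ± 0.408 CPM in WT and 11.6 ± 0.867 CPM in EV (SD, n = 3 each). SPRY4, an inhibitor of receptor signalling to ERK, averaged 11.7 ± 0.483, 17.4 ± 0.639 and 4.26 ± 0.192 CPM, and ETV4, an ETS factor, 19.3 ± 1.42, 32.7 ± 2.03 and 6.62 ± 0.738 CPM in MUT, WT and EV. In MUT relative to WT 4 were called lower (ETV4, PHLDA1, SPRY4 and ETV5) and 1 higher (SPRED1), of which PHLDA1 and SPRED1 were picked out after their values were seen. For MUT vs WT of batch 2, 33.1% of all genes were called and 16.4% were called lower. In batches 1 and 3, 0 of 9 were called in any comparison by edgeR, with 0 to 4 at an unadjusted p under 0.05. At most 1.40% of all genes were called in batch 1 and at most 1.22% in batch 3. The unadjusted counts over all genes are those given for the previous list. Over all batches 3 of 9 were called higher in MUT than in EV, where 2.95% of all genes were called higher. For WT over EV 3 of 9 were called higher as well, where 0.315% of all genes were called in either direction.

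**Figure D4:**
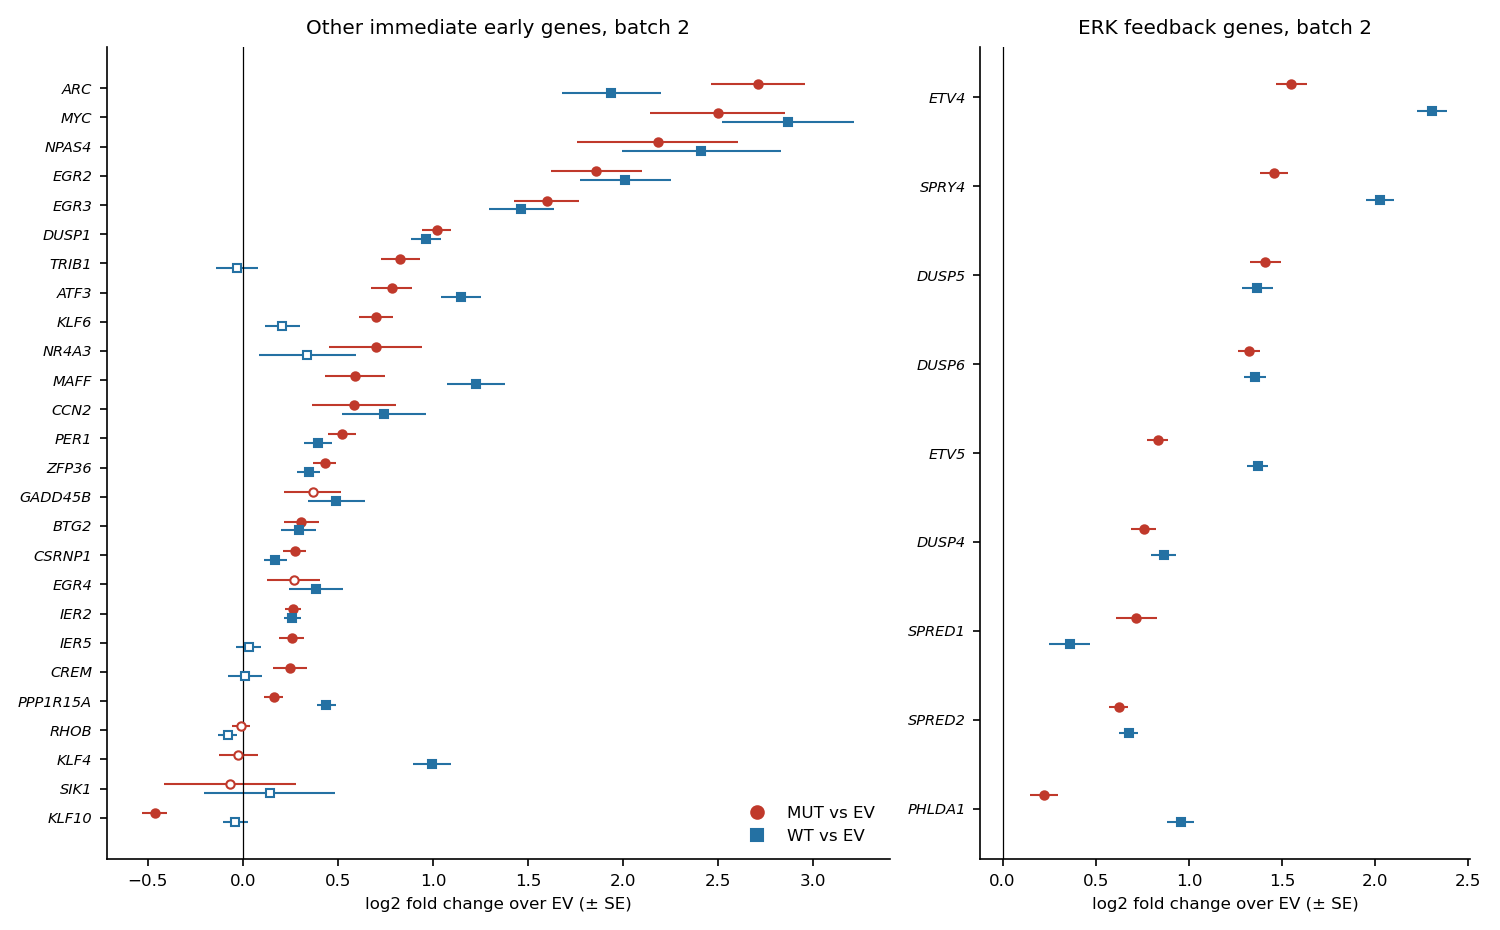
Log2 fold change over EV with its standard error in batch 2 for 26 other immediate early genes (left) and 9 ERK feedback genes (right), for MUT and for WT, with filled symbols where the edgeR adjusted p was under 0.05. ARC reached 2.71 in MUT and 1.94 in WT, and SPRY4 1.46 in MUT and 2.02 in WT.

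The factors that act upstream of these genes had smaller changes. Of 13 listed, all tested, 9 were called higher in MUT than in EV of batch 2 and 7 in WT than in EV, where 24.1% and 19.6% of all genes were called higher. Their median log2 fold changes were 0.18 and 0.205, beside −0.001 and −0.007 over all genes. ATF1, which binds cyclic AMP response elements, averaged 26.3 ± 1.49, 20.9 ± 0.684 and 19.1 ± 0.873 CPM in MUT, WT and EV, and CREB1 65.7 ± 2.18, 54.4 ± 1.01 and 57.1 ± 1.41 CPM (SD, n = 3 each). SRF, serum response factor, had folds of 1.09 for MUT and 1.17 for WT over EV (edgeR adjusted p = 0.0269 and 0.000474). Over all batches MEF2A was called higher in MUT than in EV (log2 fold change 0.14, edgeR adjusted p = 0.0371).

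Among dimer partners, JUN kinases and corepressors, 13 of 15 were tested. In batch 2, 7 were called higher and 1 lower in MUT than in EV, and 7 higher and 2 lower in WT than in EV, where 47.8% and 38.9% of all genes were called. NAB2, a corepressor that EGR1 induces, averaged 14.1 ± 0.766 CPM in MUT, 17.0 ± 0.502 CPM in WT and 10.6 ± 0.659 CPM in EV (SD, n = 3 each). MAPK8, a kinase of JUN, averaged 76.8 ± 4.41, 61.6 ± 1.8 and 62.6 ± 4.83 CPM in MUT, WT and EV. MAFG, a small MAF protein, had folds of 1.22 in MUT and 1.42 in WT over EV (edgeR adjusted p = 1.93e-05 and 5.78e-08).

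Textbook AP-1 targets were mostly too low to test: of 16 listed, 6 passed the filter over all libraries and 5 in batch 2, and CCND1, SPP1 and the listed matrix metalloproteinases were among those that did not. In batch 2, 0 were called higher and 2 lower in MUT than in EV, and 1 was called higher and 1 lower in WT than in EV, shares near the 47.8% and 38.9% of all genes called. PLAUR, the urokinase receptor, averaged 1.74 ± 0.262 CPM in MUT, 1.72 ± 0.173 CPM in WT and 2.64 ± 0.381 CPM in EV (SD, n = 3 each), lower in MUT and in WT than in EV (edgeR adjusted p = 0.00512 and 0.00494). CD44, an adhesion receptor, averaged 31.6 ± 0.0774, 57.1 ± 3.03 and 41.0 ± 0.519 CPM in MUT, WT and EV, lower in MUT and higher in WT than in EV (edgeR adjusted p = 6.75e-06 and 4.25e-07).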

How the data were processed

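Messenger RNA from EndoC-βH1 cells was sequenced as 29 stranded libraries. The authors deposited estimated counts per gene, which the submitters' processing notes link to fastp and kallisto; the sources used here do not give versions, build or annotation. The counts were rounded for testing. Genes were filtered with filterByExpr, scaled by TMM and fitted with edgeR 4.0.16 (robust quasi-likelihood, R 4.3.3) on batch and medium, and per batch on medium. A model with a mean for each batch and medium tested differences between batches. Adjustment was Benjamini-Hochberg over all genes, threshold 0.05; each SE is the log2 fold change over the root of F. Pairing by replicate number was checked. The steps were tested on simulated data. Alternatives used DESeq2 1.42.0 and limma 3.58.1, among other settings; the fit without robust dispersion and the correlations in batches 1 and 3 alone or without the EV libraries of batch 2 were chosen after seeing the data. The members and lists were chosen with earlier results of these data known. Named beside the members were CEL and INS, up to 6 genes of each list with the smallest p, and the 8 genes most alike with a mean of at least 5 CPM. Correlations used log2 CPM with a prior count of 2.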

Additional observations from a re-analysis of the deposited data

Results flagged for a closer look

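The highest EV library over the 3 batches stood apart from the other 8 for EGR1 (54.6 CPM) and for FOSB (0.785 CPM), and both values belong to library 3 of batch 2. The highest MUT library stood apart for FOSL1, at 0.303 CPM, which is 12 counts. Of 50 groups of 4 to 10 libraries, 3 held such a library, and all 3 of these groups pool the 3 batches of a medium. The chance rate of about 1 in 20 holds for libraries of 1 population, so it is no yardstick for groups that pool batches.

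The effect of medium differed between the 3 batches in 16 of 27 tests of a member and a comparison (edgeR F test, adjusted over all genes). For MUT vs EV the adjusted p was 9.17e-06 for FOS, 0.00161 for FOSB, 2.55e-05 for JUN, 1.14e-05 for JUND, 0.00274 for EGR1 and 0.00506 for NR4A1. For WT vs EV it was 8.47e-06 for FOS, 0.00279 for FOSB, 1.43e-05 for JUN, 0.00267 for JUNB, 8.16e-07 for JUND, 0.0266 for EGR1 and 0.000152 for NR4A1. For MUT vs WT it was 0.0029 for FOSL2, 0.0162 for JUNB and 0.016 for NR4A1. MUT vs EV and WT vs EV share the EV libraries.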

How the results depend on the processing

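Over the 3 batches, 0 of 9 members were called in each comparison. For MUT vs EV the count became 2 with DESeq2, 1 with DESeq2 size factors in edgeR, 1 with genes of at least 1 CPM in 9 libraries, 1 without robust dispersion, 1 without batch 1 and 4 without batch 3, and 0 to 2 with single libraries left out. It became 1 for MUT vs WT without batch 2, and 1 for WT vs EV with voom and correlated libraries and without batch 3. In batch 3 it became 1 for MUT vs WT with DESeq2 and with no filter on low counts, and in batch 2 it was 1 to 3 for MUT vs WT with single libraries left out. The causes were not tested. Depth limits FOSL1, which at 0 to 12 counts per library did not pass the filter.

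Over all genes, comparing MUT with EV, MUT with WT and WT with EV gave 1106, 188 and 67 calls. They were 2108, 528 and 385 with DESeq2, 20, 393 and 372 with only the compared media, 1, 4 and 11 with voom, and 0, 0 and 0 both with no batch term and with 1 summed profile per batch and medium (unadjusted 736, 525 and 503 for the summed profiles, and 1731, 914 and 815 for no batch term). With no filter the first was 232 and the second 81. Without batch 1 the second was 104 and the third 29, without batch 2 the first was 0 (unadjusted 1916) and the second 305, and without batch 3 they were 4744, 1552 and 551. Without single libraries they ran from 5 to 1999, 63 to 253 and 19 to 138; without EV library 2 of batch 2 the first was 5 and the third 19.

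With the replicate block they were 0 (unadjusted 4406), 44 and 34. The block rests on numbers alone: 28 pairs of same-numbered libraries had correlations of −0.058 to 0.089, and 0 exceeded 0.1. In batch 2 FOSL2 was called lower in MUT than in WT under the block (adjusted p = 0.049).

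Directions turned without batch 2 for MUT vs EV in FOS (−0.161), FOSB (−0.257), JUN (−0.013) and NR4A1 (−0.015), for WT vs EV in FOS (−0.039), JUN (−0.157), JUND (−0.157) and NR4A1 (−0.089), and for MUT vs WT in NR4A1 (0.074). FOSL2 turned for MUT vs WT without batch 3 (−0.134). FOS turned for MUT vs WT without batch 1 (0.001) and with single libraries left out (−0.168 to 0.022, and −0.195 to 0.052 in batch 2). JUNB for WT vs EV, at −0.002, was 0 with DESeq2 size factors, 0.003 with total library size, 0.001 with at least 1 CPM, 0.038 with no batch term, 0.003 with the replicate block, 0.001 with only the compared media, 0.001 with summed profiles, 0.02 with voom, 0.087 without batch 1, 0.067 without batch 3 and −0.042 to 0.041 without single libraries. In batch 2, WT vs EV ran from −0.08 to 0.176 in FOSL2 and from 0 to 0.077 in NR4A2 without single libraries. Over all genes, fits without single libraries called 1 to 3018, 0 to 1314 and 2 to 35 genes in batch 1 (294, 58 and 3 with all), and 3 to 975, 26 to 1051 and 2 to 52 in batch 3 (10, 248 and 2 with all), for MUT over EV, MUT over WT and WT over EV. The median correlation between members was 0.472 on deviations from batch means and 0.051 in batch 1 alone.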
